A study of Mus musculus with 2 samples.

Results

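The 9 genes described here encode the MHC class I presentation pathway of the mouse: the heavy chain genes H2-K1 and H2-D1, the light chain gene B2m, the peptide transporter genes Tap1 and Tap2, the tapasin gene Tapbp, the immunoproteasome genes Psmb8 and Psmb9, and Nlrc5, which encodes a transcriptional activator of class I genes. They were taken by gene symbol, and each of the 9 symbols matched 1 of the 32285 genes in the count tables of both libraries. The data were 2 droplet-based single-cell RNA-seq libraries of liver from mice that had received CD-HFD, a feed rich in fat and without choline, for 6 months from 8 weeks of age. One library came from WT littermates and the other from miR-33 HKO mice, which carry floxed miR-33 alleles and an Albumin-Cre transgene that acts in hepatocytes and which the labels give as AlbCRE. Each library was made from pooled cells of 3 livers, with hepatocytes and sorted live non-parenchymal cells mixed in equal parts, and the labels do not say which alleles the WT littermates carry besides WT. Each genotype had 1 library without replicates, so animals could not be compared within a genotype, no test was made, and all 95% intervals below cover counting error only. The gene for miR-33 is not among the genes of the tables, so its deletion was not checked here.

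MHC class I molecules sit on the surface of nearly all nucleated cells and show fragments of the cell's own proteins to CD8 T cells. Proteins are cut by the proteasome, the fragments enter the endoplasmic reticulum through the TAP transporter, and tapasin with other chaperones loads them onto a heavy chain paired with beta-2 microglobulin. Interferon-gamma is known to raise the whole pathway and to replace the constitutive catalytic proteasome subunits by the immunoproteasome subunits. Hepatocytes are known for modest class I at rest and for its rise in hepatitis.

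UMIs (unique molecular identifiers, 1 per captured RNA molecule) totalled 130451427 over 30078 barcodes in WT and 52563185 over 20000 barcodes in HKO. Barcodes were grouped by marker genes that include none of the 9 genes, and levels are UMIs summed over the barcodes of a class per 1000000 UMIs of that class (CPM). There were 1830 hepatocyte-like barcodes in WT, with a median of 20612 UMIs, and 3531 in HKO, with a median of 4251. The T and NK-like class held 187 WT and 695 HKO barcodes, and the endothelial-like class held 178 and 303. The T and NK and the endothelial labels were carried by their own markers, and several smaller groups carried markers of more than 1 cell type and are named by them. Hepatocyte-like barcodes were taken by a limit on depth and by the lack of other markers, since hepatocyte markers did not set them apart: their 8 markers summed to 65550 CPM in WT and 53280 CPM in HKO, against 65380 and 58180 CPM at free RNA depth. No group had stellate or cholangiocyte markers alone. Hepatocyte transcripts were present in every group: scaled by Alb, they made up 45.4% of the UMIs of T and NK-like barcodes in WT and 32.2% in HKO, and 81.5% and 75.4% of those of endothelial-like barcodes. A further 20036 WT and 10148 HKO barcodes had no markers of another class and too few UMIs to be told from droplets with free RNA, and they serve as the background. Whether the libraries share cell barcodes was not analysed here.

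Most of the genes lie together. H2-K1 (chr17:33996017-34000347, minus strand, GRCm38), Tapbp (chr17:33915899-33929292, plus), Psmb9 (chr17:34181987-34187764, minus), Tap1 (chr17:34187553-34197225, plus), Psmb8 (chr17:34197721-34201454, plus), Tap2 (chr17:34203527-34216321, plus) and H2-D1 (chr17:35262730-35267499, plus) lie in the MHC region of chromosome 17. B2m lies at chr2:122147686-122153083 (plus) and Nlrc5 at chr8:94434356-94527272 (plus). The annotated spans of Tap1 and Psmb9 overlap head to head, and Psmb8 and Tap2 overlap antisense transcripts. Tapbp overlaps an antisense transcript and, on its own strand, Zbtb22. B2m overlaps Patl2 on the opposite strand, and Nlrc5 a long non-coding RNA on the opposite strand and a microRNA gene on its own. H2-K1 and H2-D1 overlap no other annotated gene. The counting options for strand are not given in the sources used here, so reads of overlapping genes may not be fully separated. H2-K1, H2-D1 and H2-Q10 are close paralogs, and how UMIs that match more than 1 of them were counted is likewise not given.

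RefSeq promoter windows (250 bases before to 50 after the transcript start, GRCm38.p6) were at hand for 7 of the 9 genes, all but Tap2 and Nlrc5. H2-K1, H2-D1 and B2m share a stretch in which TGACG, the core of the X2 box bound by CREB and ATF factors in the module through which NLRC5 acts, stands 20 bases before ATTGG, the core of the Y box bound by NF-Y. It is printed here, with both cores in capitals, since it is the sequence these 3 genes have in common. Tap1 is shown for contrast, with TGACG in capitals and no ATTGG at that distance.
H2-K1 (chr17:34000359-34000388, minus strand): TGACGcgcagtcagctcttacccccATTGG
H2-D1 (chr17:35262993-35263022, plus strand): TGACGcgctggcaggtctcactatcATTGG
B2m (chr2:122147609-122147638, plus strand): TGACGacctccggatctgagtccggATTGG
Tap1 (chr17:34187470-34187499, plus strand): TGACGacagagggtcctgccctcaatctgg
The spaced pair, searched as TGACG, 20 bases of any kind and ATTGG on both strands and chosen after the 3 sequences had been seen, was present in 31 of 32851 promoter windows, or 0.0944%. The class I gene H2-M3 was among them. TGACG alone was present in 20.8% of the windows and ATTGG alone in 37.4%.

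The second stretch shown is the interferon-type motif of the same promoters, searched as GAANNGAAA on both strands and present in 7.52% of all windows. In H2-K1, H2-D1 and H2-Q10, a class I heavy chain gene used mainly in liver, it lies on the opposite strand and reads TTTCACTTC, in capitals. B2m holds GAAA and GAAA with 2 bases between, which 3.44% of the windows do. H2-K1 and H2-D1 also hold the palindrome of the enhancer A element (GGGGAT followed by TCCCC), which 10 of the 32851 windows hold (0.0304%), and H2-Q10 does not.
H2-K1 (chr17:34000426-34000455, minus strand): gattccccatctccacagTTTCACTTCtgc
H2-D1 (chr17:35262926-35262955, plus strand): gattccccatctcctcagTTTCACTTCtgc
H2-Q10 (chr17:35469916-35469945, plus strand): gactccccatctccccagTTTCACTTCtgc
B2m (chr2:122147544-122147573, plus strand): acatGAAACTGAAAatgggaaagtcccttt
A match describes the letters of these windows only. The windows of Tap1 and Psmb9 share 275 of their 300 bases, so both genes are read outwards from the same short region.

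B2m and H2-K1 differed less between the liver cell classes than H2-D1 and the processing genes did. Between hepatocyte-like and T and NK-like barcodes, B2m and H2-K1 were close to even as counted. In WT, B2m was at 2069 CPM in hepatocyte-like barcodes and 2418 CPM in T and NK-like barcodes, and H2-K1 was at 1296 and 1596 CPM. In HKO, B2m was at 1489 and 1550 CPM in the same classes, and H2-K1 at 1098 and 1510 CPM. Hepatocyte RNA made up 45.4% of T and NK-like UMIs in WT and 32.2% in HKO. With it subtracted, B2m was at 2709 and 1579 CPM there. Over all groups B2m was less even. It reached 3427 CPM in WT and 2214 CPM in HKO in barcodes with endothelial, macrophage and stellate markers. It was at 3062 CPM in WT macrophage-like and 662 CPM in HKO erythroid-like barcodes. By UMIs, B2m ranked 60 among all genes in hepatocyte-like barcodes and 43 in T and NK-like barcodes. H2-K1 was highest in the 22 WT and 83 HKO barcodes with endothelial, macrophage and stellate markers, at 1848 and 1851 CPM. Outside erythroid-like barcodes, its lowest level was in barcodes with macrophage and monocyte or dendritic markers, at 1108 CPM in WT and 836 CPM in HKO.

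H2-D1, the other classical heavy chain, was more graded. It was at 367 CPM in WT and 244 CPM in HKO in hepatocyte-like barcodes, and at 728 and 631 CPM in T and NK-like barcodes. It was higher still in barcodes with endothelial and macrophage markers (900 and 884 CPM) and in those with endothelial, macrophage and stellate markers (1263 and 1146 CPM). The 4 groups with the highest levels came in the same order in both libraries, with barcodes of macrophage and monocyte or dendritic markers, at 757 and 684 CPM, just above T and NK-like barcodes. The counting intervals of these neighbours overlapped in each library. The ratio of H2-K1 to H2-D1 UMIs was accordingly 3.53 in WT and 4.50 in HKO hepatocyte-like barcodes, 2.19 and 2.39 in T and NK-like barcodes, and 1.55 and 1.55 in barcodes with endothelial and macrophage markers. UMIs of 3' ends count molecules and were not divided by transcript length, so such a ratio is compared here only between groups of barcodes.

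**Figure D1:**
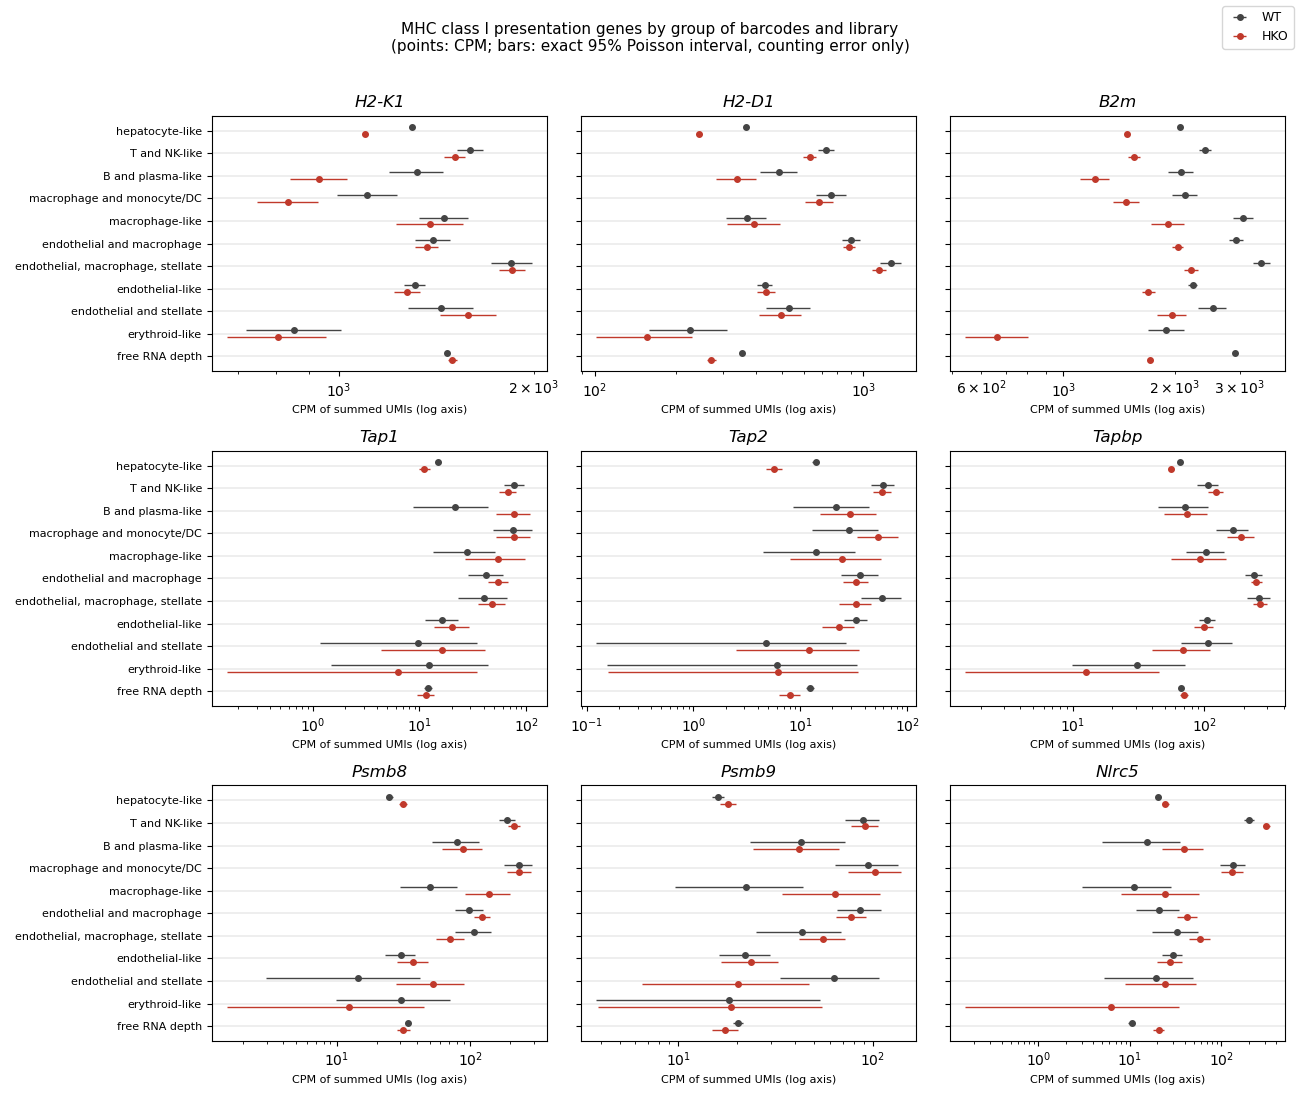
CPM of each of the 9 genes (log axis, 1 panel per gene) in 11 groups of barcodes, WT in dark grey and HKO in red, with exact 95% Poisson intervals; a group without UMIs has no point. B2m and H2-K1 span a narrower range over the groups than Nlrc5 and Psmb8. The latter stand highest in T and NK-like barcodes and in those with macrophage and monocyte or dendritic markers. B2m is lower in HKO in 11 of 11 groups.

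The genes that make and move the peptides were low in hepatocytes. Tap1, a subunit of the peptide transporter, was at 14.9 CPM in WT and 11.1 CPM in HKO in hepatocyte-like barcodes, against 77.3 and 67.5 CPM in T and NK-like barcodes. Tap2, its partner subunit, was at 14.0 and 5.70 CPM against 59.5 and 58.4 CPM. Tapbp, whose product bridges the transporter and the empty heavy chain, was at 64.7 and 55.4 CPM against 107 and 121 CPM, and was highest in barcodes with endothelial, macrophage and stellate markers (258 and 266 CPM). The immunoproteasome genes were likewise lower in hepatocytes. Psmb8 was at 24.8 and 31.6 CPM in hepatocyte-like barcodes, 190 and 214 CPM in T and NK-like barcodes, and 230 and 233 CPM in barcodes with macrophage and monocyte or dendritic markers. Psmb9 was at 16.0 and 17.9 CPM, 88.8 and 91.0 CPM, and 94.7 and 103 CPM in these 3 groups. For both genes the intervals of the last 2 groups overlapped in each library.

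Nlrc5 had the steepest gradient. It was at 20.5 CPM in WT and 24.5 CPM in HKO in hepatocyte-like barcodes and at 201 and 311 CPM in T and NK-like barcodes. Barcodes with macrophage and monocyte or dendritic markers came next at 133 and 132 CPM, and their intervals did not overlap those of T and NK-like barcodes in HKO (99.5 to 173 against 285 to 338 CPM). The remaining groups lay between 11.1 and 32.9 CPM in WT and between 20.9 and 58.3 CPM in HKO, apart from erythroid-like barcodes, which held 0 Nlrc5 UMIs in WT and 1 in HKO, and WT barcodes of free RNA depth at 10.5 CPM.

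Within each library, 9 of 9 genes were higher in T and NK-like than in hepatocyte-like barcodes. How many of all genes were higher in the same way was not counted, so this is not read as particular to the 9. The ratio of the CPM values had a median of 4.25 in WT, from 1.17 for B2m to 9.78 for Nlrc5 (interval 8.42 to 11.3). In HKO the median was 5.07, from 1.04 for B2m (1.00 to 1.08) to 12.7 for Nlrc5 (11.3 to 14.3). H2-K1 had ratios of 1.23 and 1.37, H2-D1 of 1.98 and 2.58, Psmb8 of 7.67 and 6.78, and Psmb9 of 5.55 and 5.07. The classes differ in depth, and hepatocyte RNA, present among T and NK-like barcodes, adds the same genes at the hepatocyte level. With that RNA subtracted by Alb, and leukocyte RNA taken off hepatocyte-like barcodes, the median on the log2 scale was 2.82 in WT and 2.83 in HKO, against 2.09 and 2.34 as counted. Thinned to 1000 UMIs per barcode, which evens out depth, it was 1.42 in WT and 2.15 in HKO. In endothelial-like barcodes the median ratio over hepatocyte-like barcodes was only 1.22 in WT and 1.32 in HKO, led in both by Tap2 at 2.37 and 4.03.

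Since several of the 9 genes were higher in leukocytes, the share of leukocyte RNA in hepatocyte-like barcodes was estimated. The 6 pan-leukocyte genes (Ptprc, Coro1a, Laptm5, Cd52, Rac2 and Cd53) summed to 11.3 CPM there in WT and 12.0 CPM in HKO. The profile used for leukocyte RNA was that of all classes with other markers except erythroid, with hepatocyte RNA subtracted. It thus also held endothelial-like and stellate RNA. Scaled by the 6 genes, it accounted for 0.385% (H2-K1) to 2.41% (Psmb8) of the UMIs of the 9 genes in WT and for 0.407% (B2m) to 2.99% (Tap2) in HKO. The levels in hepatocyte-like barcodes were also near those at free RNA depth, with ratios of free RNA depth over hepatocyte-like of 0.512 (Nlrc5) to 1.41 (B2m) in WT and 0.852 (Nlrc5) to 1.41 (Tap2) in HKO.

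The catalytic subunits of the immunoproteasome were then set against the constitutive subunits they replace. In hepatocyte-like barcodes the constitutive subunits had more UMIs: Psmb8 had 0.288 UMIs per UMI of Psmb5 in WT (0.269 to 0.307) and 0.372 in HKO (0.342 to 0.403). In T and NK-like barcodes the same ratio was 2.16 in WT (1.70 to 2.77) and 3.70 in HKO (2.97 to 4.66), and in barcodes with macrophage and monocyte or dendritic markers it was 2.21 and 2.26. Psmb9 over Psmb6 was 0.191 and 0.183 in hepatocyte-like barcodes against 1.01 and 1.31 in T and NK-like barcodes. The third pair, Psmb10 over Psmb7, was at 0.197 and 0.241 against 0.778 and 1.17. Endothelial-like barcodes lay between, with 0.543 and 0.687 for Psmb8 over Psmb5, but most of their RNA was that of hepatocytes. The higher ratio of Psmb8 to Psmb5 in HKO T and NK-like barcodes went with a lower Psmb5, at 57.8 CPM against 87.9 CPM in WT. At free RNA depth Psmb8 over Psmb5 was 0.286 in WT and 0.356 in HKO, close to hepatocyte-like barcodes.

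**Figure D2:**
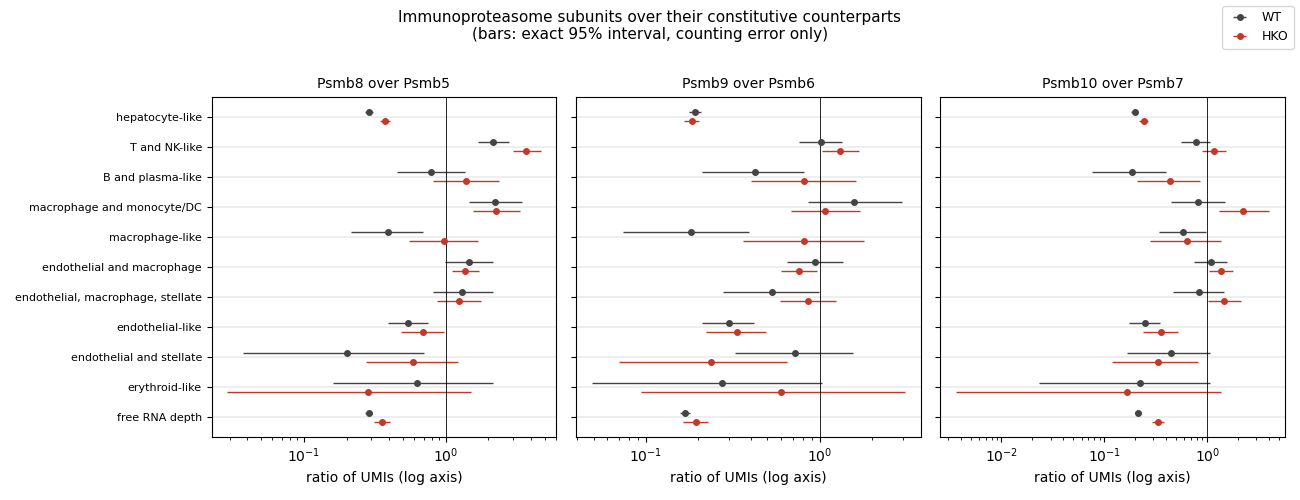
UMIs of 3 immunoproteasome subunit genes divided by UMIs of their constitutive counterparts (log axis, 1 panel per pair) in 11 groups of barcodes, WT in dark grey and HKO in red, with exact 95% intervals. Hepatocyte-like barcodes and barcodes of free RNA depth lie well left of 1, where both subunits have equal UMIs, and T and NK-like barcodes lie near or right of it.

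HKO was compared with WT first in hepatocyte-like barcodes, where Albumin-Cre acts by design. They were set by depth, and the deletion was not checked in them. The surface chains, Tap2 and, as counted, Tap1 were lower in HKO hepatocyte-like barcodes, and Psmb8 was higher. B2m was at 0.720 times its WT level (0.711 to 0.728), H2-K1 at 0.848 (0.836 to 0.860) and H2-D1 at 0.665 (0.646 to 0.685). Tap1 was at 0.746 (0.647 to 0.858), Tapbp at 0.856 (0.803 to 0.913) and Tap2 at 0.408 (0.338 to 0.489). Psmb8 was at 1.27 (1.16 to 1.39), Nlrc5 at 1.19 (1.08 to 1.32) and Psmb9 at 1.12 (0.996 to 1.26). The direction of Nlrc5 turned in 2 of 12 alternatives, to a log2 ratio of -0.17 thinned to 1000 UMIs and -0.03 with barcodes weighted equally (0.25 as counted), and that of Psmb9 in 1, to -0.04 with no depth minimum (0.17 as counted). Psmb8 was higher in 12 of 12, from 0.10 with no depth minimum to 0.86, past 1.5-fold, thinned to 1000 UMIs (0.35 as counted), and at free RNA depth its ratio was 0.932 (0.825 to 1.05). Thinned to 1000 UMIs, Tap1 was at -0.02 (-0.42 as counted) and Tap2 at -2.15 (-1.29 as counted). Of the 9 genes, 8 reached the mean of 10 CPM required of a gene in this class, and Tap2, the most different of them, fell just short. Of the 8, H2-D1 was at least 1.5-fold lower and 0 were at least 1.5-fold higher. Over the 7070 genes analysed, 4.3% were at least 1.5-fold lower and 2.35% at least 1.5-fold higher. The median log2 ratio was -0.23 over the 8 genes and -0.02 over the 7070 genes.

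H2-D1 lies next to the 1.5-fold limit. Its log2 ratio, -0.59 as counted, ran from -0.61 to -0.52 over the 12 alternatives that recompute it and was under 1.5-fold in 7 of them. Its direction did not depend on depth: in hepatocyte-like barcodes of 5000 to 10000 UMIs it was at 397 CPM in WT and 234 CPM in HKO, and in those of over 20000 UMIs at 367 and 243 CPM. B2m was at 2350 and 1304 CPM, and at 2088 and 1572 CPM, in the same ranges, and at 1841 and 1545 CPM in the range between, where it differed least. In barcodes without any UMI of the 6 pan-leukocyte genes, B2m was at 1946 CPM in WT and 1477 CPM in HKO. Tap2 was at 13.6 CPM in WT and 3.32 CPM in HKO in the deepest range, the latter from 18 UMIs.

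**Figure D3:**
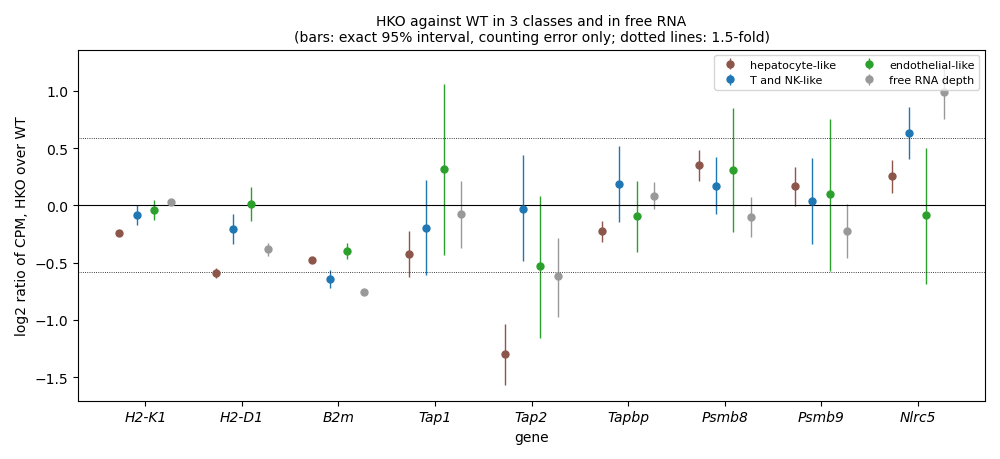
Log2 ratio of CPM, HKO over WT, of the 9 genes in hepatocyte-like, T and NK-like and endothelial-like barcodes and at free RNA depth, with exact 95% intervals; dotted lines mark 1.5-fold. B2m lies below 0 in the 3 classes and at free RNA depth, H2-D1 is lowest in hepatocyte-like barcodes, and Nlrc5 lies above 0 in T and NK-like barcodes, highest at free RNA depth, and above 0 in hepatocyte-like barcodes as counted but not in 2 of 12 alternatives.

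In T and NK-like barcodes, where Albumin-Cre is not active by design, the 9 genes were mostly alike between the libraries. Nlrc5 was 1.55 times as high in HKO (1.32 to 1.82) and B2m was at 0.641 times its WT level (0.608 to 0.676). H2-K1 was at 0.946 (0.890 to 1.00), H2-D1 at 0.866 (0.790 to 0.949), Tap1 at 0.874, Tap2 at 0.981, Tapbp at 1.14, Psmb8 at 1.13 and Psmb9 at 1.02, and the intervals of the last 5 included 1. Thinned to 1000 UMIs, Tap2 was at a log2 ratio of 1.17, against -0.03 as counted. So 1 of 9 genes passed 1.5-fold higher and 1 passed 1.5-fold lower, against 15% and 17.7% of the 11505 genes analysed in this class. The median log2 ratio was -0.03 over the 9 genes and 0.04 over the 11505.

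The T and NK-like barcodes fell into 7 sub-clusters, which took different shares of the 2 libraries. The most uneven of them held 9 WT and 104 HKO barcodes. B2m was lower in HKO in 7 of 7 sub-clusters, with ratios of 0.472 to 0.673. Nlrc5 was higher in 6 of 7, with ratios of 0.84 to 1.92, the exception being the sub-cluster with the highest Klrb1c, a marker of NK cells, at 268 CPM in WT and 225 CPM in HKO. With hepatocyte RNA or free RNA subtracted, or with doublets kept, the ratio of Nlrc5 fell under 1.5. With free RNA subtracted, B2m also came under 1.5-fold, at a log2 ratio of -0.42 against -0.64 as counted. Nlrc5 was also higher in HKO at free RNA depth, by a ratio of 1.98 (1.68 to 2.33), and its part in the T and NK-like ratio was not tested. The 18 T and NK markers summed to 4547 CPM in WT and 5977 CPM in HKO in this class, with 0 of 18 at 0.

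In endothelial-like barcodes, 0 of the 9 genes differed by 1.5-fold in either direction, against 16.8% of 11357 genes higher and 11.1% lower. B2m was again lower, from 2238 to 1698 CPM, at a ratio of 0.759 (0.723 to 0.796). H2-K1 was at 1310 CPM in WT and 1276 CPM in HKO and H2-D1 at 429 and 433 CPM. The other 6 genes rested on 31 to 219 UMIs per library, and their intervals included 1. The median log2 ratio of the 9 genes was -0.04, against 0.08 over all genes analysed. Since most of this RNA was that of hepatocytes by Alb, these ratios bear only partly on endothelial cells, and subtraction of that RNA brings Tap1 past 1.5-fold higher (log2 ratio 1.11) and Tap2 (-0.63) and Nlrc5 (-0.87) past 1.5-fold lower. With free RNA subtracted instead, the log2 ratio of H2-K1 turned from -0.04 as counted to 1.00, and those of Tap2, Tapbp and Nlrc5 were -1.47, -1.05 and -1.71. Thinned to 1000 UMIs, Nlrc5 was at 0.83, against -0.09 as counted.

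Across all 11 groups of barcodes B2m was lower in HKO, with ratios from 0.349 in erythroid-like barcodes to 0.777 in those with endothelial and stellate markers, and each of the 11 intervals lay below 1. At free RNA depth it was at 2909 CPM in WT against 1720 CPM in HKO, 0.591 times as high (0.582 to 0.601). The lower B2m of hepatocyte-like barcodes was therefore also found where free RNA was measured. The ratio of H2-K1 ran from 0.707 (B and plasma-like) to 1.10 in barcodes with endothelial and stellate markers, and was 1.02 at free RNA depth. The number of UMIs of B2m per UMI of H2-K1 and H2-D1 together was 1.24 in WT and 1.11 in HKO in hepatocyte-like barcodes, 1.04 and 0.724 in T and NK-like barcodes, and 1.60 and 0.972 at free RNA depth. H2-D1 was lower in HKO in 9 of 11 groups, with its lowest ratio in hepatocyte-like barcodes. At free RNA depth it was at 0.767 (0.736 to 0.799). Since the libraries differ in genotype, preparation and depth together, genotype and library cannot be told apart.

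In the smaller groups, where B2m was lower throughout, few of the other genes had intervals that excluded 1. H2-K1 was at 0.755 (0.648 to 0.878) in barcodes with macrophage and monocyte or dendritic markers, and H2-D1 at 0.697 (0.551 to 0.882) in B and plasma-like barcodes. Nlrc5 was higher in HKO in 8 of the 10 groups with UMIs in both libraries, free RNA depth included. Its interval lay above 1 in 4: hepatocyte-like, T and NK-like, free RNA depth and, of the smaller groups, barcodes with endothelial and macrophage markers. In the last it was at 21.0 CPM in WT and 42.5 CPM in HKO. The 18 T and NK markers summed there to 37.9 CPM, with 6 at 0, and 198 CPM, with 1 at 0. The 10 B and plasma markers summed to 208 and 387 CPM, and hepatocyte RNA made up 33.9% and 16.6%. Their part in the higher Nlrc5 was not tested. Psmb8 was higher in 8 of 11 groups. In macrophage-like barcodes it was at 50.1 CPM from 18 UMIs in WT and 137 CPM from 28 UMIs in HKO, 2.74 times as high (1.46 to 5.27), beside a hepatocyte RNA share of 91.1% in WT and 77.4% in HKO. The pan-leukocyte genes summed to 515 CPM in WT and 1330 CPM in HKO there, and the 18 T and NK markers to 22.3 CPM, with 13 at 0, and 167 CPM, with 6 at 0. Their part in the higher Psmb8 was not tested. Tap2, apart from hepatocyte-like barcodes, was lower with an interval below 1 only at free RNA depth (0.651). In B and plasma-like barcodes H2-K1 was at 1320 CPM in WT and 933 CPM in HKO, and it was lower in HKO in 3 of 3 sub-clusters, with ratios of 0.394 to 0.84. Of the 66 WT barcodes, 36 lay in a sub-cluster led by Jchain, a gene of plasma cells, against 10 of 166 in HKO.

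The genes around the 9 were described from lists. Of the 10 other class I genes, 5 were analysed in hepatocyte-like barcodes, with a median log2 ratio of -0.25. H2-T23, which encodes the mouse ligand of the inhibitory receptor NKG2A, was at 79.3 CPM in WT there and at 38.8 CPM in HKO, 0.489 times as high (0.455 to 0.525). H2-Q10 was the highest of the list, at 1378 and 1160 CPM in hepatocyte-like barcodes, with a ratio of 0.842 beside 0.848 for H2-K1. In endothelial-like barcodes 4 of the 10 were at least 1.5-fold higher, led by H2-T24 at 2.58 and H2-Q6 at 2.05, and 1, H2-M3, was at least 1.5-fold lower, against 16.8% and 11.1% of all genes analysed in this class. Cell type markers also differed between the libraries in this class, as given below for the interferon-gamma response, and their part was not tested. In T and NK-like barcodes 1 of 9 was at least 1.5-fold higher and 3 lower, against 15% and 17.7% of all genes, the latter 3 including H2-Q10 at 0.643, beside the lower share of hepatocyte RNA in HKO given above. The other 2 were Cd1d1 at 0.635 and H2-T22 at 0.662.

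Pdia3, Calr and Canx, chaperones that fold and load class I molecules, were lower in HKO in hepatocyte-like, T and NK-like and endothelial-like barcodes. Pdia3, the oxidoreductase ERp57 of the loading complex, was at 326 CPM in WT and 146 CPM in HKO in hepatocyte-like barcodes (ratio 0.448), with ratios of 0.516 for T and NK-like and 0.554 for endothelial-like barcodes. Calr, the chaperone calreticulin, was at 0.579, 0.560 and 0.628 in these classes, and Canx, calnexin, at 0.741, 0.557 and 0.674. Of the list of 5, 4 of the 4 analysed were lower in hepatocyte-like barcodes, 4 of 5 in T and NK-like and 3 of 5 in endothelial-like barcodes. Of all genes analysed, 3777 of 7070, 5460 of 11505 and 4913 of 11357 were lower in these classes. Tapbpl, a relative of tapasin, was at 1.29 in T and NK-like (0.842 to 2.01) and 1.14 in endothelial-like barcodes (0.597 to 2.15), and Erap1, which trims peptides, at 1.25 in the latter (0.918 to 1.70). The median log2 ratio of the list was -0.61, -0.84 and -0.57. At free RNA depth it was -0.81, with 3 of 5 genes at least 1.5-fold lower, against 17.2% of all genes analysed at that depth (14.4% were at least 1.5-fold higher). Erap1 was at 0.793 in hepatocyte-like barcodes.

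Of the 6 other proteasome genes, 0 were past 1.5-fold in hepatocyte-like barcodes, where 2.35% of all genes were higher and 4.3% lower by that much. Psme1, a subunit of the PA28 activator, came nearest at 80.8 CPM in WT against 121 CPM in HKO, 1.49 times as high (1.42 to 1.57), and its partner Psme2 was at 1.20. At free RNA depth Psme1 was at 1.01. Psmb5 was at 0.657 and Psme1 at 1.26 in T and NK-like barcodes. Among the 12 regulators, 7 were analysed in hepatocyte-like barcodes and 0 were past 1.5-fold, against the same shares. Irf1 was at 1.02, and Irf2, the highest of the list, was at 134 CPM in WT and 127 CPM in HKO. Irf1, an interferon-induced activator of class I genes, was at 1.75 in endothelial-like barcodes (1.37 to 2.24), where Nfyb, a subunit of NF-Y, was at 1.51. Rfx5 and Rfxap, subunits of the factor that binds the X box, were at 2.19 and 1.68 in T and NK-like barcodes and Nfya at 0.606, all from under 40 UMIs per library with intervals that included 1. Of the interferon inputs, Ifng, the cytokine itself, was at 50.6 CPM in WT and 88.1 CPM in HKO among T and NK-like barcodes, 1.74 times as high (1.28 to 2.40). At most 4 UMIs of it were found in hepatocyte-like barcodes of either library. Hepatocyte RNA made up 45.4% of the UMIs of T and NK-like barcodes in WT and 32.2% in HKO. The 18 T and NK markers summed to 4547 CPM in WT and 5977 CPM in HKO there. The part of these shifts in the ratio of Ifng was not tested. Ifngr2, a chain of the interferon-gamma receptor, was at 1.73 in endothelial-like barcodes (1.05 to 2.90). Jak1 was the highest of that list in hepatocyte-like barcodes, at 117 and 113 CPM.

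The 10 genes of the interferon-gamma response, mostly GTPases and chemokines, differed between the classes. In endothelial-like barcodes 10 of 10 were higher in HKO and 7 were at least 1.5-fold higher, with a median log2 ratio of 0.76. Of all 11357 genes analysed there, 6444 were higher and 16.8% at least 1.5-fold higher, with a median of 0.08. The 12 endothelial markers summed to 2823 CPM in WT and 4956 CPM in HKO, with 0 of 12 at 0 in either library. The 18 T and NK markers summed to 10.1 CPM in WT, with 7 of 18 at 0, and to 50.6 CPM in HKO, with 4 at 0. The 6 erythroid markers summed to 44.7 and 496 CPM, with 1 at 0 in each library, the 7 neutrophil markers to 4.80 and 30.9 CPM, with 3 and 1 at 0, and the share of hepatocyte RNA went from 81.5% to 75.4%. Their part in the result was not tested. Gbp2 was at 2.41 (1.37 to 4.33), Irgm2 at 2.09 (1.36 to 3.23), Gbp7 at 1.86, Cxcl10 at 1.82, Gbp3 at 1.73, Ifi47 at 1.67 and Igtp at 1.56, and the intervals of Gbp3 and Igtp included 1. In hepatocyte-like barcodes 5 of 7 were higher, against 3293 of 7070 genes, none by 1.5-fold, and 1 was at least 1.5-fold lower (Irgm1 at 0.581), against 4.3% of all genes. In T and NK-like barcodes 5 of 10 were higher, against 6045 of 11505 genes, and 3 were at least 1.5-fold lower: Cxcl9 at 0.339, Irgm1 at 0.530 and Iigp1 at 0.559, against 17.7% of all genes. At free RNA depth 8 of 10 were lower, with a median log2 ratio of -0.45, against 9046 of 15138 genes and a median of -0.14. The difference between classes was not tested.

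**Figure D4:**
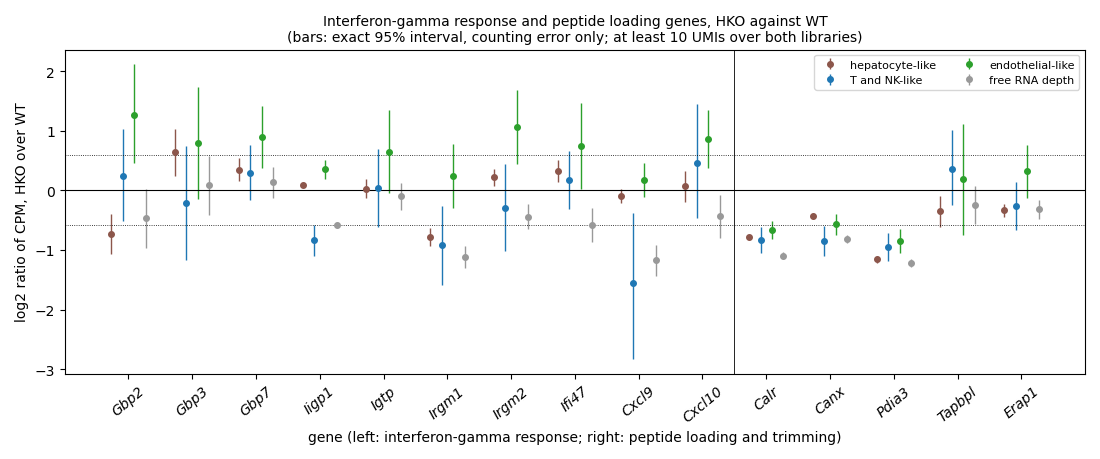
Log2 ratio of CPM, HKO over WT, for 10 interferon-gamma response genes (left) and 5 peptide loading and trimming genes (right) in hepatocyte-like, T and NK-like and endothelial-like barcodes and at free RNA depth, with exact 95% intervals; genes with at least 10 UMIs over both libraries are drawn. Endothelial-like points of the response genes lie above 0, and Calr, Canx and Pdia3 lie below 0 in the 3 classes and at free RNA depth.

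Finally, the profile of the 9 genes over 10 classes in 2 libraries was compared with those of the 3446 genes of at least 50 CPM. The mean standardised profile of the 9 was most like those of Zfp36l2 (Pearson r of 0.951 over 20 points), Capzb (0.944), Tln1 (0.937), U2af2 (0.933), Ostf1 (0.932), Srsf3 (0.932), Tab2 (0.931), Trim30a (0.925), Actr3 (0.925) and Ifngr1 (0.925). Of the 9, H2-D1 followed the mean of the other 8 most closely (0.893), then Tapbp (0.859) and Tap2 (0.829). H2-K1 (0.475) and B2m (0.442) followed it least. These values describe points that share libraries, hepatocyte RNA and depth.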

How the data were processed

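Single-cell suspensions of 2 pools of liver, 1 per genotype, were sequenced with 10x Genomics 3' chemistry. The deposited values were raw UMI counts per gene and barcode, made by the authors with Cell Ranger 7.1.0 according to the file headers. The submitters' processing notes also name the mm10 genome, R 3.0 and Seurat 3. Counting options are not given in the sources used here.

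Filters kept barcodes of 500 or more UMIs and 300 or more genes with no more than 50% mitochondrial UMIs. Scrublet's automatic threshold marked 0 barcodes, so its top scores (0.8% per 1000 barcodes) were left out, 7019 in WT and 2664 in HKO. Barcodes were clustered with scanpy 1.11.5 (2000 variable genes, 30 components, 15 neighbours, Leiden resolution 1.0), without the 9 genes and the pathway lists, and named from 13 marker lists. A class needed at least 3 markers. Barcodes without other markers were called hepatocyte-like at 2 times the commonest depth of their library (5140 UMIs in WT, 1626 in HKO) and otherwise of free RNA depth. The commonest depth in HKO, 813 UMIs, lay close to the lowest depth deposited, 770 UMIs.

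UMIs were summed per class and library and scaled to CPM. Intervals were exact Poisson or conditional binomial, at 95%. Genes with a mean of at least 10 CPM (hepatocyte-like) or at least 10 UMIs over both libraries (other classes) were analysed, and 1.5-fold was the limit for a difference. All 9 genes were named in every class of at least 20 barcodes in both libraries, and genes of the 6 pathway lists where they passed 1.5-fold or were highest. The value of 1 regulator is not reported here. Hepatocyte RNA was estimated by Alb. Leukocyte RNA was estimated by 6 pan-leukocyte genes, with the profile of all classes with other markers except erythroid, endothelial-like barcodes included. Intervals and counts were run on simulated Poisson sums drawn from the WT hepatocyte-like profile with set fold changes. These hold counting error only and do not speak to differences between animals or libraries. The genes and lists were chosen with earlier results of these data known. Positions were from GENCODE M21 and promoters from RefSeq. Alternatives included doublets kept, thinning to 1000 UMIs, other depth limits, scalings and subtractions.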

Additional observations from a re-analysis of the deposited data

Results flagged for a closer look

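For Tap1 and Psmb9 the ratio of HKO to WT lay above 1 with its whole counting interval in 1 class and below 1 in another. Tap1 was at a ratio of 3.54 in B and plasma-like barcodes (1.53 to 9.51), from 7 UMIs in WT and 31 in HKO, and at 0.746 in hepatocyte-like barcodes. Psmb9 was at 2.87 in macrophage-like barcodes (1.1 to 7.97), from 8 and 13 UMIs, and at 0.321 in barcodes with endothelial and stellate markers (0.0896 to 0.960), from 13 and 5 UMIs, of which 1 WT barcode held 69.2% of the 13. The differences between the classes were not tested, and the shares of plasma-like barcodes differed between the libraries. In B and plasma-like barcodes hepatocyte RNA made up 58.9% in WT and 34.9% in HKO. The 18 T and NK markers summed there to 24.55 CPM, with 13 at 0, and 127 CPM, with 7 at 0. In macrophage-like barcodes hepatocyte RNA made up 91.1% and 77.4%, the T and NK markers summed to 22.3 and 167 CPM, and the pan-leukocyte genes to 515 and 1330 CPM. The part of these shifts in the ratios was not tested.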

How the results depend on the processing

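No paired analysis was possible because each genotype had 1 library and no result came from a test. Of the 136 main values and counts recomputed under alternatives, 105 stayed within the counting interval of the main value (for counts of genes, within 1.5 times) and 31 did not. A change of sign was looked for only in medians past 1.5-fold, those of T and NK-like over hepatocyte-like barcodes, and found in 0. The medians of HKO against WT lay under that limit, so the 0 does not bear on them. The median log2 ratio in hepatocyte-like barcodes (-0.2311) became -0.1675 thinned to 1000 UMIs, -0.2078 scaled by the median ratio, -0.1633 with no depth minimum and -0.1595 without barcodes that hold a pan-leukocyte UMI. The count of genes at least 1.5-fold lower there (1) became 0 with doublets kept, scaled by the median ratio, at a fold of 2 and without pan-leukocyte UMIs, and 2 at a lower minimum of 1 CPM, which admits Tap2. H2-D1 itself was under 1.5-fold in 7 of 12 alternatives: where the count stayed at 1 in 4 of these, the gene was Tap2 or B2m. The count higher (0) became 1 when thinned and with no depth minimum. In T and NK-like barcodes the count higher (1) became 0 with doublets kept, at a fold of 2 and with hepatocyte RNA or free RNA subtracted, and 2 when thinned, with Tap2 beside Nlrc5, and the count lower (1) became 0 at a fold of 2. With free RNA subtracted it stayed at 1, but through Tap1 in place of B2m. In endothelial-like barcodes the median (-0.0389) became -0.1288 thinned, -0.2528 with hepatocyte RNA subtracted and -0.1365 with free RNA subtracted. The count higher (0) became 1 under each of these 3. The count lower (0) became 1 when thinned or scaled by the median ratio, 2 with barcodes weighted equally or hepatocyte RNA subtracted, and 3 with free RNA subtracted, where B2m and Psmb8 were left with under 3 UMIs and have no value. The median log2 ratio of T and NK-like over hepatocyte-like barcodes became 1.424 in WT when thinned (as counted 2.0885), and 2.8187 in WT and 2.8252 in HKO with both kinds of foreign RNA subtracted. The causes were not tested. B2m remained lower in HKO in all 12 alternatives for hepatocyte-like barcodes (log2 ratio -0.69 to -0.40) and all 11 for T and NK-like barcodes (-0.78 to -0.42). Barcodes without pan-leukocyte UMIs, free RNA subtraction and the depth limit for other classes were chosen after seeing the data. For the transporter, immunoproteasome and Nlrc5 genes outside hepatocyte-like barcodes, many counts lay under 100 UMIs, which limits what can be seen.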
